A study of Mus musculus with 32 samples.

Results

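The RNAs described here are products of RNA polymerase III that work inside ribonucleoprotein particles. They are the 7SL RNA of the signal recognition particle (genes Rn7s1 and Rn7s2), the 7SK RNA (Rn7sk), the RNA subunits of RNase P (Rpph1) and RNase MRP (Rmrp), a vault RNA (Vaultrc5) and the Y RNAs Rny1 and Rny3. They were chosen by gene symbol through their Ensembl identifiers, by no rule on their values but with earlier results of these data known. They fill 8 of the 41687 rows of the deposited count table. In lung libraries made without any selection they held 9.32% ± 0.514 (SD, n = 8) of the counts outside the 2 rows that carry ribosomal RNA reads. After capture of ribosomal RNA they held 12.7% ± 0.866 (n = 12), and after poly(A) selection 0.000555% ± 0.000149 (n = 12).

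RNA polymerase III makes short, mostly untranslated RNAs, ends transcription at a run of T in the non-template strand, and adds no poly(A) tail, so that most of its products end in a few U. 7SL is the scaffold of the particle that brings ribosomes making secreted and membrane proteins to the endoplasmic reticulum, a route used by the surfactant proteins of the lung, and 7SK holds the transcription elongation kinase P-TEFb in an inactive particle. RNase P trims the leaders of tRNA precursors, RNase MRP cuts the precursor of ribosomal RNA, vault RNA sits in the large cytoplasmic vault particle, and Y RNAs bind the Ro60 protein.

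Lungs came from C57b/6 wild-type mice (WT) and from Bmal1 knock-outs (KO), 8 to 18 weeks old and all labelled female. Bmal1 is a core transcription factor of the circadian clock, and the labels do not name the knock-out allele or a time of day. RNA of 6 mice of each genotype was prepared by poly(A) selection (PolyA) and by ribosomal RNA pull-down (RiboZero), each from 200 ng of RNA. RNA of mice 3 to 6 of each genotype was also prepared without depletion or selection (NoSelect), from 15 ng in 6 preparations that were then combined, which gave 32 libraries in 6 groups of preparation and genotype. The comparisons ask how a preparation changes what is seen of these RNAs, and whether KO and WT lungs differ in them. In whole tissue, fewer cells of a type and less RNA per cell cannot be told apart.

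Total estimated counts ran from 11638594 to 25801237 in RiboZero, from 29924325 to 41548830 in PolyA and from 74979802 to 115059756 in NoSelect libraries. In NoSelect, 69.2% ± 1.35 (n = 8) of them lay in Lars2 and the transcript ENSMUST00000182010, against 0.0585% ± 0.0230 in RiboZero and 0.106% ± 0.0201 in PolyA. Levels are therefore given per 1000000 counts outside these 2 rows (ppm). Arntl, the gene that encodes BMAL1, was at 31.9 to 33.9 ppm in WT and 18.3 to 21.5 in KO libraries of NoSelect, at 34.3 to 42.7 and 18.6 to 24.6 in RiboZero, and at 31.3 to 38.0 and 26.1 to 32.6 in PolyA, where the genotypes overlapped. NoSelect KO 6 carries the tissue label Liver, yet its 8 lung markers summed to 26362 ppm, the highest NoSelect value, and its 8 liver markers stayed within 3.77 to 7.31 ppm, the range of all NoSelect libraries. All libraries of KO mouse 6 are labelled female but had Xist at 0.0723 to 0.431 ppm and 4 Y-linked genes summing to 156 to 232 ppm, whereas they summed to 0.0453 ppm in RiboZero KO 4 and to 0 in the other libraries. Results that rest on this mouse are also given without it.

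The 2 genes of 7SL lie on chromosome 12 (GRCm38), Rn7s1 at 69159295 to 69159594 on the plus strand and Rn7s2 at 69361182 to 69361481 on the minus strand. Their transcripts of 300 bases are identical, with 0 mismatches, and the deposited counts are split between the rows about evenly, with at least 49.9% of them in Rn7s1 in every library. The rows cannot be told apart and are summed as 7SL where levels are given. Rn7sk (chromosome 9, 78175303 to 78175633, minus strand) is 331 bases long, Rpph1 (chromosome 14, 50807449 to 50807767, minus strand) 319 bases, and Rmrp (chromosome 4, 43492788 to 43493058, minus strand) 271 bases. The other 3 RNAs are shorter: Vaultrc5 has 143 bases, Rny1 (chromosome 6, 47788069 to 47788180, minus strand) 112 and Rny3 (chromosome 6, 47781624 to 47781725, plus strand) 102. All are non-coding transcripts in GENCODE M21, and Rpph1 also overlaps an exon of the protein-coding gene Ccnb1ip1 on the same strand. Sequences from that annotation are shown for 3 of the long RNAs (Rn7sk, Rpph1 and Rmrp) and for the short Rny1 and Rny3, because the results divide these RNAs by length. Capitals mark the run of T that ends Rn7sk and the Y RNAs, and in Rpph1 the 233 bases (positions 36 to 268) shared with Ccnb1ip1. Rmrp has no capitals. Of Rn7sk the bases 32 to 331 and of Rpph1 the bases 1 to 300 are shown.
Rn7sk: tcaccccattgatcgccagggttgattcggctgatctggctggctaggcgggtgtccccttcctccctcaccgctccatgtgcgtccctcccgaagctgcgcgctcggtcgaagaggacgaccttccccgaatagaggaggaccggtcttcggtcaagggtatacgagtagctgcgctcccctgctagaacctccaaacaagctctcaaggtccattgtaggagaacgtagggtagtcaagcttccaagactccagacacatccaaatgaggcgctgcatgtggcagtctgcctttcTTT
Rpph1: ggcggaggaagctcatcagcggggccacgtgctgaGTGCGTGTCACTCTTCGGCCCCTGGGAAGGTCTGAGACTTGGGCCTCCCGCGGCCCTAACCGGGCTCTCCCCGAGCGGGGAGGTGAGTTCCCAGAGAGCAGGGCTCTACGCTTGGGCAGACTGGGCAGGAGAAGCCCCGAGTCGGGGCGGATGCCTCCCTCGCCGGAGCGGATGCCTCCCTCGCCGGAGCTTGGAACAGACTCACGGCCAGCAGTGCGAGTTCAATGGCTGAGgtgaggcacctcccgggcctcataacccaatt
Rmrp: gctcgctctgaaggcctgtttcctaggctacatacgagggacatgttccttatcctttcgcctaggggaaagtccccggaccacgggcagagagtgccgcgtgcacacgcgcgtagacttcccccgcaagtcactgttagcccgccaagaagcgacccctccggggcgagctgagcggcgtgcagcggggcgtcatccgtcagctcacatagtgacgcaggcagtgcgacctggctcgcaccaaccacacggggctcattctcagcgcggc
Rny1: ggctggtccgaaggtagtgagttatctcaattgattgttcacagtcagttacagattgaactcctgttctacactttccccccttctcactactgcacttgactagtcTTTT
Rny3: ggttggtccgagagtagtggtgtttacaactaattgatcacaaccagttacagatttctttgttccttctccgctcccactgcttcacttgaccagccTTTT

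The longest run of A in any of these RNAs has 4 bases, so none carries a long encoded run of A. Shared sequence limits how well a row can be read. Of the 31-base words of Rpph1, 70.2% also occur in other rows, mainly Ccnb1ip1, whose own row had means of 0.0055, 0.0041 and 0.0045 ppm in NoSelect, RiboZero and PolyA. Of those of Rn7sk, 72.8% also occur in other rows of the table, with Gm24447 the one that took most counts (78.9 ppm in NoSelect and 110 in RiboZero), and 7SL shares words with Gm26461 (168 and 199 ppm). Rny1 shares 37.8% of its words with Gm26168, which was at 0 ppm, whereas Vaultrc5 and Rny3 share none. Rmrp shares none with another row of the table, but it overlaps an exon of Ccdc107 on the opposite strand, and how the counting used strand is not given in the sources used here.

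7SL was the highest of these RNAs in every library. In NoSelect it stood at 70990, 66409, 61816 and 70233 ppm in WT mice 3 to 6 and at 78872, 71615, 69060 and 71281 in KO mice 3 to 6. Rn7sk followed at 17780, 17007, 16796 and 17150 ppm in WT and 16309, 16980, 17371 and 18416 in KO. WT and KO ranges overlapped for both RNAs. Rn7sk had the lowest coefficient of variation over the 8 NoSelect libraries, 3.73%, close to the 4.30% of Rpph1, against 6.93% for 7SL. Among the 41685 rows ranked by mean ppm in NoSelect, Rn7s2 and Rn7s1 came 3 and 4, Rn7sk 6, Rpph1 15 and Rmrp 23. Vaultrc5 came 521, Rny1 1359 and Rny3 2161.

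Levels of different RNAs are compared per kilobase of transcript. On that scale the NoSelect means were 233448 ppm per kb for 7SL, 52043 for Rn7sk, 10587 for Rpph1, 7763 for Rmrp, 1613 for Vaultrc5, 1102 for Rny1 and 839 for Rny3. Each RNA was above the next in 8 of 8 libraries, except that Vaultrc5 was above Rny1 in 7 of 8. In RiboZero the same scale gave 328140 for 7SL, 70928 for Rn7sk, 11518 for Rpph1 and 6163 for Rmrp, and then Rny3 at 195, Rny1 at 94.4 and Vaultrc5 at 55.0. That order held in 12 of 12 libraries. The order of the 3 short RNAs was thus the opposite of that in NoSelect, while the 4 long RNAs kept theirs.

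**Figure D1:**
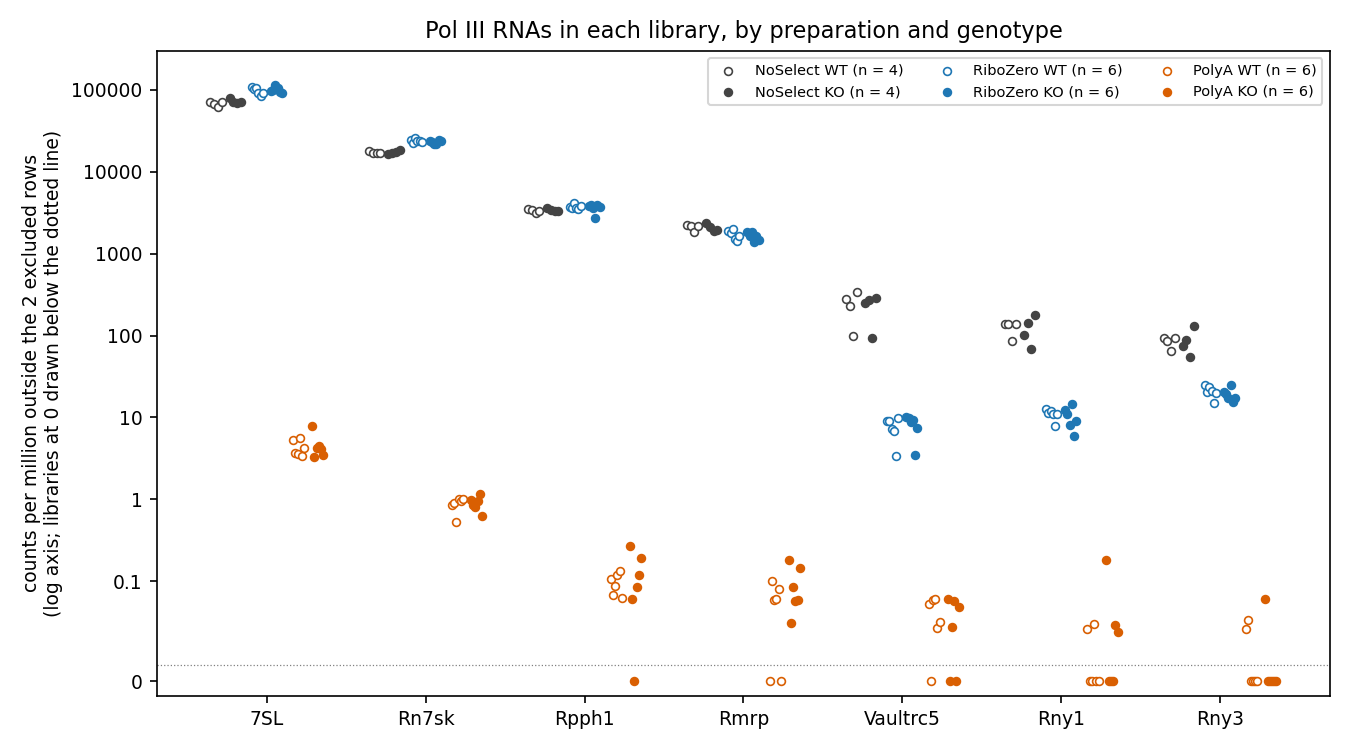
Level in ppm (log axis) of each RNA in each library, with open points for WT and filled points for KO, coloured by preparation. NoSelect and RiboZero points lie close together for 7SL, Rn7sk, Rpph1 and Rmrp and far apart for Vaultrc5, Rny1 and Rny3, and all PolyA points lie at 7.76 ppm or below.

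RiboZero libraries held more 7SL and Rn7sk, less Rmrp, and much less Vaultrc5, Rny1 and Rny3 than NoSelect libraries, and Rpph1 differed little. A row was called between preparations where its adjusted p was under 0.05 and its level changed by 1 or more on the log2 scale. By this rule 3 of the 8 rows were lower in RiboZero and 0 higher, where 4.04% of the 17015 rows tested were called, 2.46% lower and 1.58% higher. The median log2 fold change of the 8 rows was −0.25, against 0.03 for all rows tested. RNA input and the number of combined preparations differ between the 2 preparations along with depletion, and the parts of these in the differences cannot be told apart.

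Vaultrc5, the vault RNA, whose gene lies on the plus strand of chromosome 18, differed most. It stood at 277, 227, 98.3 and 341 ppm in NoSelect WT mice 3 to 6 and at 251, 274, 93.0 and 285 in KO mice 3 to 6. In RiboZero it ran from 3.41 to 9.84 ppm in WT (median 8.11, n = 6) and from 3.48 to 10.2 in KO (median 9.01, n = 6), on 62 to 263 counts a library. The preparations did not overlap, and within each of the 8 mice NoSelect was 26.8 to 38.0 times higher, with a median of 31.5. The fitted log2 fold change was −5.02 (SE 0.259, adjusted p = 3.05e-12, edgeR quasi-likelihood test with Benjamini-Hochberg adjustment).

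The Y RNAs, which bind Ro60, were lower by less. Rny1 stood at 138, 138, 84.5 and 140 ppm in NoSelect WT and at 101, 142, 68.3 and 176 in KO, against 7.76 to 12.6 (WT, median 11.3) and 5.96 to 14.6 (KO, median 10.0) in RiboZero. Rny3 stood at 93.2, 86.5, 65.4 and 92.2 ppm in NoSelect WT and at 74.5, 88.8, 53.9 and 130 in KO, against 14.9 to 24.9 (WT, median 20.7) and 15.3 to 24.8 (KO, median 18.1) in RiboZero. For both RNAs the lowest NoSelect library lay above the highest RiboZero library. The log2 fold changes were −3.68 for Rny1 (SE 0.173, adjusted p = 6.7e-13) and −2.25 for Rny3 (SE 0.137, adjusted p = 4.14e-11) in the same edgeR fit. Within a mouse the fold was 9.72 to 19.7 for Rny1 and 3.51 to 7.58 for Rny3, so that the ratio of Rny1 to Rny3 fell from 1.43 ± 0.134 in NoSelect to 0.528 ± 0.0585 in RiboZero and was lower in 8 of 8 mice.

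The 4 long RNAs differed by at most 1.52 times between the preparations of a mouse. 7SL was 1.30 to 1.48 times higher and Rn7sk 1.28 to 1.44 times higher in RiboZero, in 8 of 8 mice each. Their log2 fold changes were 0.35 for Rn7s1 (SE 0.061, adjusted p = 8.3e-05) and 0.31 for Rn7sk (SE 0.038, adjusted p = 1.17e-06, edgeR quasi-likelihood test), under the size a call needed. Rmrp was lower in 8 of 8 mice, by 1.12 to 1.52 times, with a log2 fold change of −0.47 (SE 0.073, adjusted p = 2.21e-05). In RiboZero Rmrp ran from 1439 to 2001 ppm in WT (median 1711) and from 1383 to 1832 in KO (median 1634), against 1847 to 2247 and 1896 to 2396 in NoSelect, so that the ranges of the preparations overlapped in WT and not in KO.

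Rpph1, the RNA of RNase P, had a log2 fold change of −0.02 (SE 0.059, 95% interval −0.14 to 0.11, adjusted p = 0.84, edgeR quasi-likelihood test). It stood at 3136 to 3500 ppm in NoSelect WT and 3270 to 3618 in KO, and at 3490 to 4173 (WT, median 3646) and 2756 to 3883 (KO, median 3789) in RiboZero. In ppm it was higher in RiboZero in 7 of 8 mice, and KO mouse 4, at 0.819 times its NoSelect level, was the exception. The sign depends on the scaling: with libraries scaled to their total outside the 2 excluded rows, which moved the median of all rows by 0.14, the log2 fold change of Rpph1 was 0.12 (adjusted p = 0.0607).

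Ratios to Rn7sk within a library need no scaling between libraries. Per 1000 counts of Rn7sk there were 4072 ± 347 of 7SL in NoSelect and 4204 ± 459 in RiboZero, and 4 of 8 mice had the lower value in RiboZero and 4 the higher. Rpph1 went from 196 ± 12.4 to 156 ± 11.8 and Rmrp from 122 ± 13.4 to 71.1 ± 7.89, each lower in 8 of 8 mice. The RNAs of the 2 related ribonucleases therefore also shifted against each other, from 1.61 ± 0.0834 counts of Rpph1 per count of Rmrp to 2.21 ± 0.210, higher in 8 of 8 mice. Vaultrc5 went from 13.4 ± 5.13 to 0.337 ± 0.105, Rny1 from 7.14 ± 1.90 to 0.452 ± 0.110 and Rny3 from 4.95 ± 1.17 to 0.848 ± 0.147 per 1000.

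Size separated the members that were called from those that were not: the 3 called have at most 143 bases and the other rows at least 271. Spearman's rho between length and log2 fold change over the 8 rows was 0.707, given as a description, since Rn7s1 and Rn7s2 are 1 sequence. Other short RNA rows, mostly small nuclear and small nucleolar RNAs, were grouped by length after their values had been seen. Of 78 rows under 150 bases, 63 were called lower in RiboZero, where 2.46% of all rows tested were, with a median log2 fold change of −2.32. Of 51 rows from 150 to under 250 bases, 44 were called lower, with a median of −2.82. Some rows of this class hold the same value, such as Rnu1a1 and Gm22317 (−4.06) or Rnu2-10 and Gm23849 (−3.14), so the rows are not independent. The rows grouped by length were not checked against the count filter within RiboZero. Any that entered through NoSelect counts alone had its direction fixed in advance. Of 22 rows from 250 to under 400 bases, 1 was called lower, and the median was −0.06. Most rows of this last class are neither small nuclear nor small nucleolar RNAs, so RNA type changes along with length. Some share sequence with members, among them Gm24447, Gm26315, Gm26035 and Gm24146 with Rn7sk, and Rn7s6 and Gm26461 with 7SL. The part of length in the differences was not tested, since members of a family share sequence and length.

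**Figure D2:**
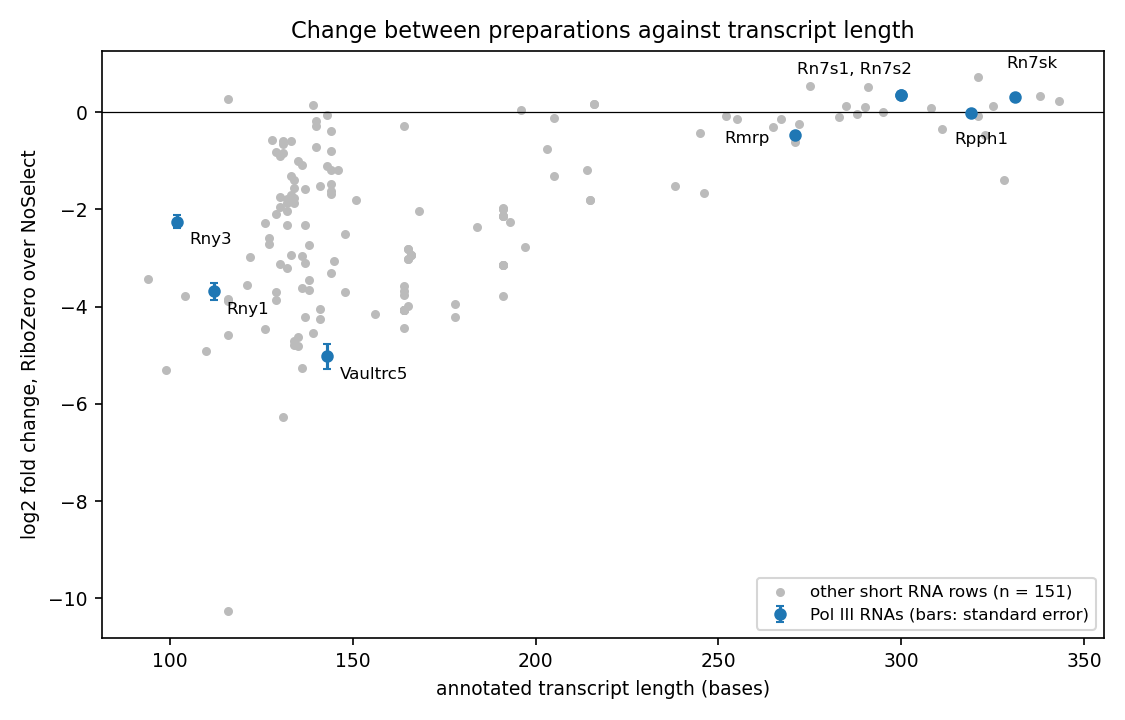
Log2 fold change of RiboZero over NoSelect (vertical) against annotated transcript length in bases (horizontal) for the 8 rows, with standard errors, and for other short RNA rows in grey. The rows of 271 bases or more lie near 0, and Vaultrc5, Rny1 and Rny3 lie between −2.25 and −5.02.

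Mouse 5 of each genotype stood below the others in the short RNAs. In NoSelect its Vaultrc5 was 98.3 ppm (WT) and 93.0 (KO) where the other 6 mice had 227 to 341, and in RiboZero 3.41 and 3.48 where the other 10 mice had 6.81 to 10.2. Its Rny1 and Rny3 were also the lowest WT and KO values in both preparations. Among other RNAs, rows under 150 bases summed to 1708 and 1813 ppm in its NoSelect libraries against 2920 to 3497 in the others, and to 286 and 314 ppm in its RiboZero libraries against 390 to 537. Rows from 150 to under 250 bases summed to 8521 and 9361 against 15787 to 18582 in NoSelect. Rows from 250 to under 400 bases set it less apart, with 574 and 595 against 583 to 676 in NoSelect, and with 731 and 729 in RiboZero within the range of 627 to 902 of the rest. Its 4 globin genes, markers of blood, summed to 1580 (WT) and 901 ppm (KO) in NoSelect, where the others had 222 to 1272, and its 8 lung markers to 23591 and 22713, within the range of the others. The labels give no measure of RNA quality or extraction day, and the part of either was not tested.

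**Figure D3:**
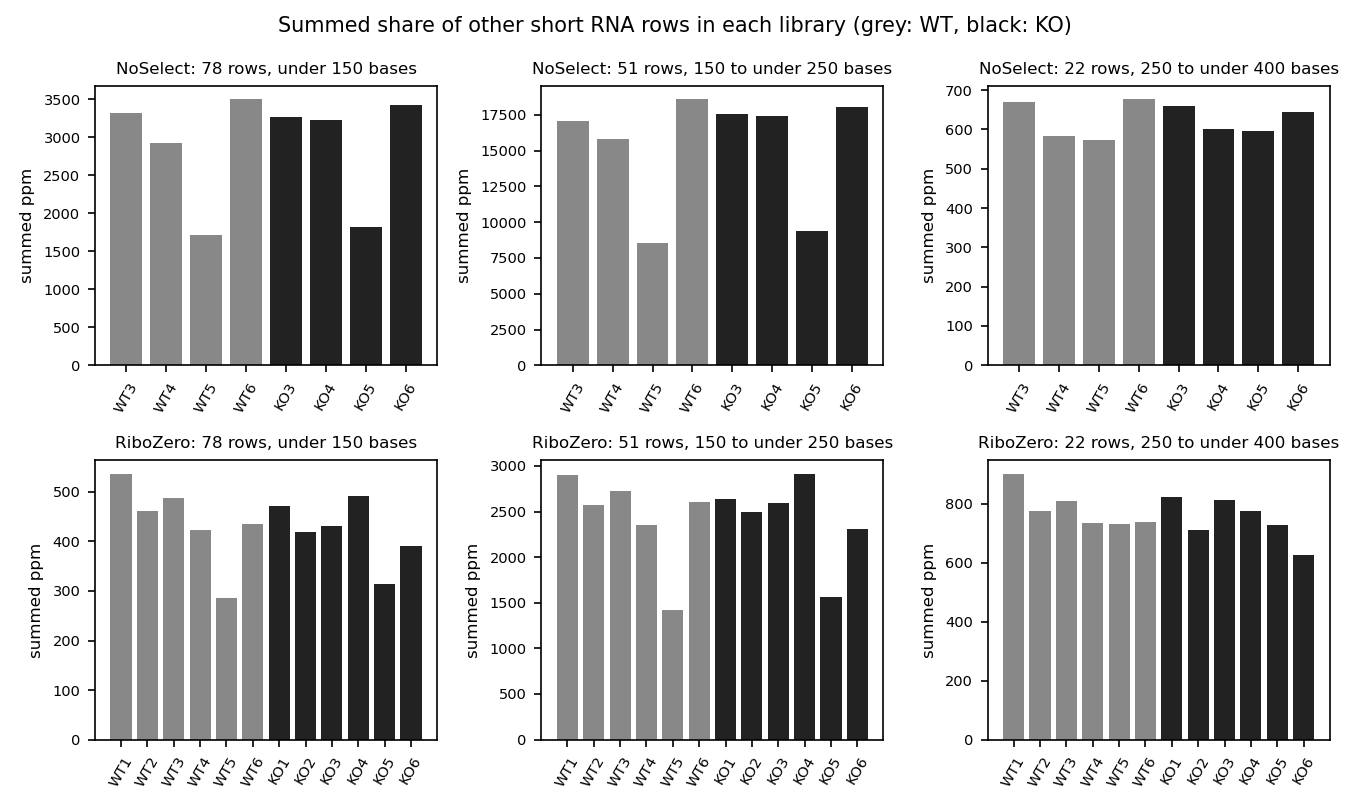
Summed ppm of other short RNA rows (bars, axis from 0) in each NoSelect library (top) and RiboZero library (bottom), in 3 classes of length, with WT in grey and KO in black. WT5 and KO5 have the lowest bars in the first and second class of both preparations, and bars close to the others in the third.

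Mice that were high or low in an RNA in RiboZero were also so in NoSelect for 7SL and Vaultrc5. Over the 8 mice prepared both ways, Pearson's r of log2 ppm was 0.883 for 7SL (Spearman's rho 0.833) and 0.972 for Vaultrc5 (rho 0.786). Exact two-sided permutation tests gave p = 0.00253 and p = 0.0066 for r, and 0.0177 and 0.0231 after Benjamini-Hochberg adjustment over the 7 RNAs, while no rho passed, the lowest adjusted exact p being 0.0977. Without the 2 mice farthest from the median, r was 0.796 for 7SL and 0.640 for Vaultrc5, and the latter rests on mouse 5 of each genotype. The other RNAs had r of 0.768 (Rny1), 0.619 (Rmrp), 0.574 (Rn7sk), 0.480 (Rny3) and 0.168 (Rpph1), with adjusted exact permutation p from 0.0663 to 0.653. Each genotype has 4 mice with both libraries, too few for a value of its own. Without KO mouse 6 the adjusted p passed for 5 of 7 RNAs, and as shares of all counts for 0 of 7.

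**Figure D4:**
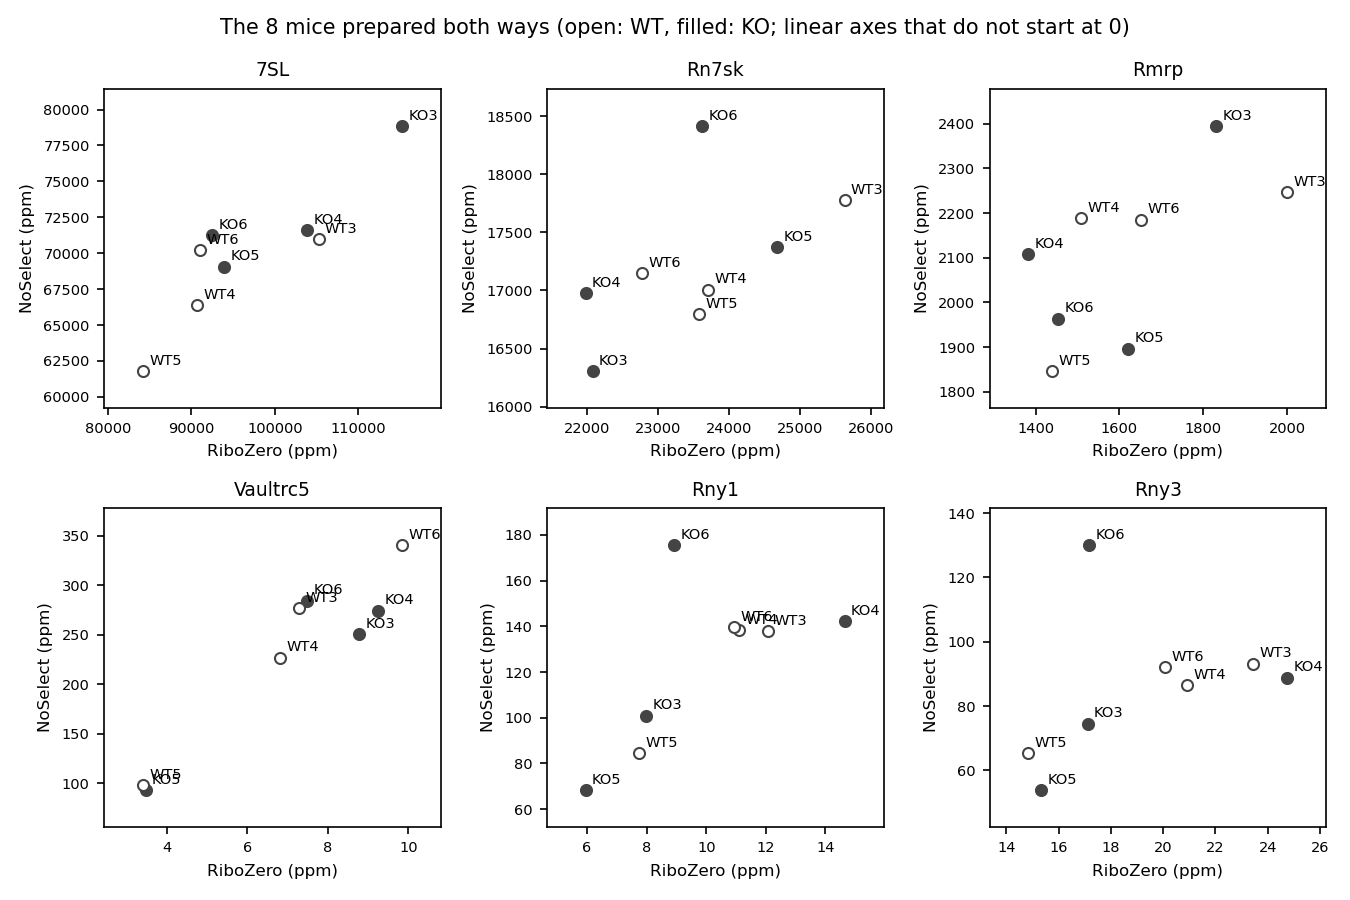
NoSelect against RiboZero level in ppm (linear axes that do not start at 0) for the 8 mice prepared both ways, 1 panel for each of 6 RNAs, open points WT and filled points KO. WT5 and KO5 sit apart at the low end for Vaultrc5, and KO3 is highest for 7SL in both preparations.

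Within a preparation the short RNAs also varied together. Across libraries the correlation of log2 ppm between Rny1 and Rny3, which lie beside each other on chromosome 6, was 0.97 in NoSelect (n = 8) and 0.92 in RiboZero (n = 12). Vaultrc5 had 0.88 and 0.76 with Rny1. Rpph1 and Rmrp, which share most of their proteins, had 0.94 and 0.65, and Rn7s1 and Rn7sk had −0.08 and −0.18. Pairs from different particles also reached high values: Rn7s1 had 0.71 and 0.60 with Rmrp, and 0.82 and −0.05 with Rpph1. These values are a description, since the points of 1 preparation share libraries and scaling.

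Poly(A) selection left few counts of any of these RNAs. Against NoSelect, all 8 rows were called lower in PolyA, where 24.6% of 17954 rows were called, 15.2% lower and 9.33% higher, with log2 fold changes from −15.31 (Rpph1) to −12.56 (Rny1) in the edgeR fit. All 8 were also lower than in RiboZero, where 23.2% of 17864 rows were called, 16.3% lower and 6.91% higher, from −15.30 (Rpph1) to −7.93 (Vaultrc5). Of the 8, only Rn7s1, Rn7s2 and Rn7sk passed the count filter within PolyA. The other rows entered both comparisons through the other preparation, which fixed their direction in advance. With at least 10 counts in every library, 3 rows were tested and 3 called in each comparison. Since fitted values of RNAs near 0 depend on the prior count, ratios from pooled counts are given with exact Poisson intervals, which cover counting error only.

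7SL had 106 to 259 counts in each PolyA library, 3.24 to 7.76 ppm, and Rn7sk had 18 to 39 counts, 0.530 to 1.15 ppm. Pooled over the 12 libraries these were 1835 and 367 counts, and NoSelect was higher 15919 times for 7SL (95% interval 15207 to 16674) and 19578 times for Rn7sk (17674 to 21746). Rpph1 had 0 to 9 counts a library, 46 in all, and NoSelect was 30624 times higher (22959 to 41829). Rmrp had 0 to 6 counts, 30 in all, and NoSelect was 29252 times higher (20491 to 43355). The intervals of these ribonuclease RNAs overlap each other, and that of Rpph1 lies above those of 7SL and Rn7sk.

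The short RNAs were at the limit of detection. Vaultrc5 had 15 counts in all 12 PolyA libraries together and was at 0 in 3 of them, Rny1 had 10 counts and was at 0 in 7, and Rny3 had 4 and was at 0 in 9. NoSelect was higher than PolyA 6415 times for Vaultrc5 (95% interval 3889 to 11462), 5149 times for Rny1 (2800 to 10738) and 8923 times for Rny3 (3485 to 32751). Against RiboZero the ratios were 219 (133 to 391), 441 (240 to 919) and 2072 (809 to 7605). Per kilobase, the PolyA order of Rpph1, Rmrp, Vaultrc5, Rny1 and Rny3 held for each neighbouring pair in only 4 to 10 of 12 libraries, and the ranges of these RNAs overlap. PolyA KO 1 held 6 of the 10 Rny1 counts and 2 of the 4 Rny3 counts, and also had the highest 7SL level, 7.76 ppm.

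No member passed the test between KO and WT lungs in any preparation. The edgeR quasi-likelihood test called 0 of 8 rows in RiboZero, where it called 3.46% of all 16710 rows. It called 0 of 8 in NoSelect, where it called 2.17% of 17124, and 0 of the 3 that passed the filter in PolyA (Rn7s1, Rn7s2 and Rn7sk), where it called 4.03% of 17211. At these background shares, fewer than 1 of 8 rows would be called, so the counts of 0 do not set the members apart. An unadjusted p under 0.05 was reached by 0 of the members in each preparation, against 16.4% (RiboZero), 15.7% (NoSelect) and 18.0% (PolyA) of all rows tested. DESeq2 called 0 members as well, and the lowest adjusted p by edgeR were 0.699, 0.448 and 0.896 in the same order.

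The intervals show what size of change these data leave. In NoSelect, 7SL was at 72707 ± 4263 ppm in KO and 67362 ± 4206 in WT (SD, n = 4 each), and Rn7s1 had a log2 fold change of 0.14 (95% interval −0.04 to 0.33). In RiboZero it was at 100188 ± 8405 in KO and 96696 ± 9251 in WT (n = 6 each), with 0.06 (−0.12 to 0.24). Rn7sk had 0.04 (−0.09 to 0.18) in NoSelect, −0.02 (−0.13 to 0.09) in RiboZero and 0.03 (−0.37 to 0.43) in PolyA. For both RNAs the KO and WT libraries overlapped in every preparation.

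The ribonuclease RNAs were held nearly as closely. Rpph1 had 0.05 (−0.10 to 0.20) in NoSelect and −0.03 (−0.21 to 0.15) in RiboZero, and Rmrp had 0.02 (−0.21 to 0.25) and −0.06 (−0.27 to 0.14). The short RNAs were held less closely. Vaultrc5 had −0.02 (−1.01 to 0.96) in NoSelect and 0.12 (−0.46 to 0.70) in RiboZero, Rny1 had 0.00 (−0.66 to 0.66) and −0.10 (−0.51 to 0.30), and Rny3 had 0.08 (−0.49 to 0.66) and −0.12 (−0.40 to 0.15). Without mouse 5 of each genotype, a choice made after seeing the data, the Vaultrc5 interval in NoSelect was −0.36 to 0.32 around the same −0.02, and in RiboZero −0.13 to 0.38 around 0.13. Without KO mouse 6, Rny1 in NoSelect had −0.24 (−0.88 to 0.39) and Rny3 −0.19 (−0.64 to 0.25), and Rn7sk had −0.00.

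**Figure D5:**
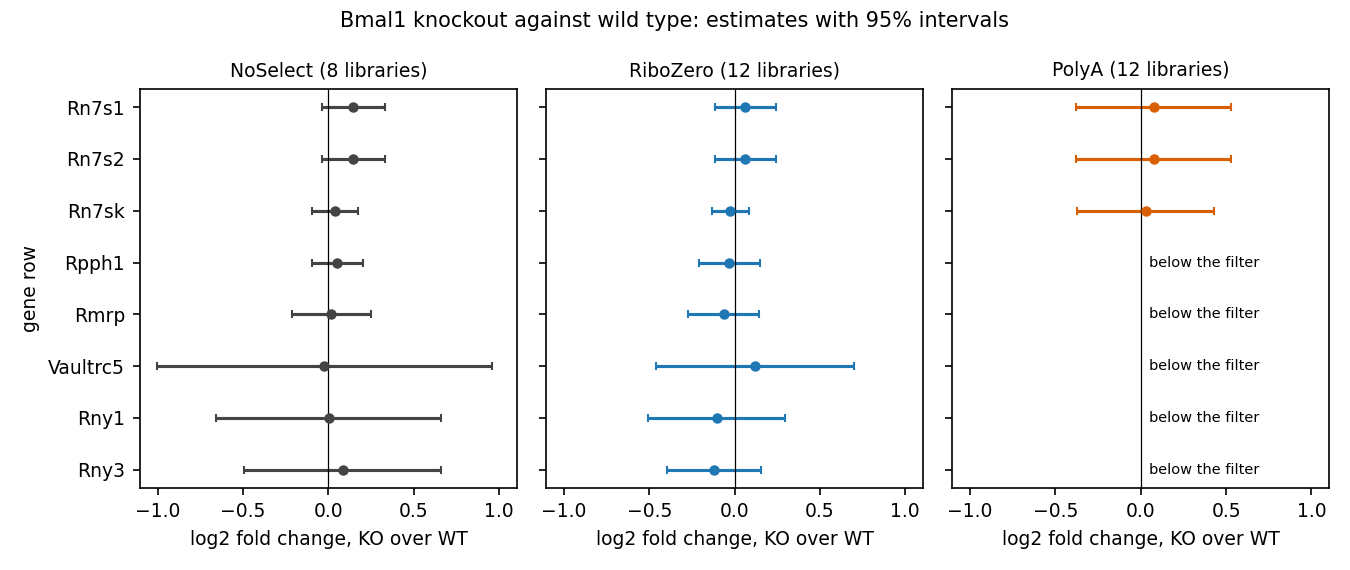
Log2 fold change of KO over WT with 95% intervals for each row in NoSelect (8 libraries), RiboZero (12) and PolyA (12), with rows below the count filter marked. Every interval includes 0, and those of Vaultrc5, Rny1 and Rny3 are the widest in NoSelect and RiboZero.

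Whether the KO effect on a member differed between preparations was tested as an interaction. It was called for 0 of 8 members in each of the 3 pairs of preparations, and for 0 rows of the whole table, a background of 0%. Rpph1, Rmrp, Vaultrc5, Rny1 and Rny3 did not pass the count filter within PolyA and entered the pairs with PolyA through the other preparation. They had 4 to 46 counts each over all PolyA libraries together, too few for these pairs to decide on their KO effect. At an unadjusted p under 0.05 in the edgeR quasi-likelihood test there were 0 members in each pair. Of all rows tested there were 412 (2.24%) for PolyA and NoSelect, 244 (1.39%) for RiboZero and NoSelect, and 331 (1.82%) for PolyA and RiboZero. The model did not pair the libraries of a mouse, which can hide differences, so the counts of 0 do not show that the effects are equal.

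The genes that make these RNAs or join them in particles were examined through lists. Of 13 subunits of RNA polymerase III, 1 was higher in KO in each preparation, where 1.84% (RiboZero), 1.62% (PolyA) and 1.19% (NoSelect) of all rows were, and 0 were lower, where 1.63%, 2.41% and 0.981% were. It was Polr3k, which encodes a small subunit of the enzyme involved in termination. Polr3k ran from 17.8 to 20.8 ppm in WT and 21.2 to 25.7 in KO of RiboZero, from 24.5 to 28.4 and 31.8 to 37.5 in PolyA, and from 16.5 to 18.1 and 19.7 to 21.8 in NoSelect. The genotypes did not overlap in any of the 3 preparations, which share mice. Its log2 fold changes were 0.34 (SE 0.052, adjusted p = 0.00316), 0.37 (SE 0.046, adjusted p = 0.00072) and 0.30 (SE 0.050, adjusted p = 0.021) by the edgeR quasi-likelihood test. In NoSelect the call was lost without WT mouse 3, 4 or 5 or without KO mouse 4 or 5, with adjusted p from 0.0503 to 0.0739, at log2 fold changes from 0.28 to 0.32, and without mouse 5 of each genotype (adjusted p = 0.168). It was also lost in RiboZero with mice 3 to 6 alone (adjusted p = 0.0705).

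No gene of the other lists passed the test between KO and WT. That holds for 19 factors and regulators of RNA polymerase III, 7 genes of the 7SK particle and P-TEFb and 5 of the vault and Y RNA particles, all tested in each preparation. It also holds for the 9 or 10 tested genes of the signal recognition particle and its receptor and the 10 or 11 of the RNase P and MRP proteins. At an unadjusted p under 0.05 these lists had 0 to 2 genes in each preparation, beside 15.7% to 18.0% of all rows. The vault and Y RNA list had 2 of 5 in each preparation, which share mice, and the 7SK list had 2 of 7 in PolyA. Elsewhere a list had 0 or 1.

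The messenger RNAs of the same particles were also compared between preparations. In RiboZero against NoSelect, where 4.04% of all rows were called and 1.58% were higher, 0 of 13 polymerase subunits, 0 of 19 factors, 0 of 7 genes of the 7SK particle, 0 of 10 RNase P and MRP proteins and 0 of 5 vault and Y RNA proteins were called. Zeros in lists of this size are near that background. Of 10 signal recognition particle genes 2 were called higher, namely Srp54c (1.84 on the log2 scale) and Srp54a, which was listed at 0 in every NoSelect library. Srp54a thus entered through its RiboZero counts, which fixed its direction in advance. Srp54a, Srp54b and Srp54c are close copies, so how the counting shared reads among them is uncertain. In PolyA against NoSelect, where 9.33% of rows were higher and 15.2% lower, 2 of 9 signal recognition particle genes were higher (Srp54c by 1.49 and Srp14, which binds the Alu domain of 7SL, by 1.18 on the log2 scale). Of the RNase P and MRP proteins 4 of 11 were higher, among them Rpp25l (1.22), Rpp21 (1.20) and Pop5 (1.16). Of the factors and regulators, 1 of 19 was higher (Gtf3c2, 1.53) and 4 were lower, among them Bdp1 (−2.31), Snapc3 (−1.96) and Pou2f1 (−1.71). Trove2, which encodes Ro60, was lower by −1.65, and Parp4, a vault protein, by −1.20, so that 2 of 5 in that list were lower. Polr3gl was the 1 of 13 polymerase subunits called, with 1.03, and 0 of 7 genes of the 7SK particle were called.

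Short RNAs with a cap made by RNA polymerase II, such as spliceosomal and U3 RNAs, served for comparison. All 12 that were tested were lower in PolyA than in NoSelect, the median being −11.97, where 15.2% of all rows were lower. All 12 tested were also lower in PolyA than in RiboZero, with a median of −9.89, where 16.3% of all rows were lower. Within PolyA 0 of these RNAs passed the count filter. They thus entered both comparisons through the other preparation, which fixed their direction in advance. In RiboZero against NoSelect, where 2.46% of all rows were lower, 9 of 13 were lower, among them Rnu11 (−4.70), Rnu1a1 (−4.06) and Rnu2-10 (−3.14). Of other transcripts of RNA polymerase III, mostly 5S ribosomal RNA genes, 107 of 184 rows were at 0 in every library. The 4 tested in RiboZero against NoSelect were all lower, with a median of −8.55, where 2.46% of all rows were lower. Within RiboZero 0 of these rows passed the count filter. The 4 thus entered through their NoSelect counts, which fixed their direction in advance.

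Rows with the most similar pattern over the 32 libraries were named by the highest Pearson r of log2(ppm + 1) among 10370 rows. For 7SL, Rn7sk and Rpph1 the highest was Ube2l3, with r from 0.9993 to 0.9997, a protein-coding gene listed at 0 in every PolyA library. The next was Gm22009 for 7SL and Rn7sk (r = 0.9992) and Snora73a for Rpph1 (0.9992), and Rmrp had Lncpint (0.9992) and Snora73a (0.9989). Vaultrc5 had Snord22 (0.9988) and Gm24305 (0.9973), both far lower in RiboZero than in NoSelect. Rny1 had Gm24407 (0.9947) and Gm25835 (0.9938), and Rny3 had Gm22614 and Gm25890 (0.9984 each). These values are a description, and the points share the step between the 3 preparations.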

How the data were processed

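RNA was extracted with TRIzol and RNeasy Mini columns and prepared with TruSeq Stranded mRNA (PolyA) or TruSeq Stranded Total RNA kits (RiboZero, and NoSelect with depletion skipped), with adapters that carry molecular identifiers and 11 PCR cycles, per the labels' protocols. Salmon 1.4.0, UMI-tools 1.1.1 and GRCm38 are named in the submitters' processing notes. The use of molecular identifiers in counting is not given in the sources used here. Estimated counts of 32 libraries were deposited by the authors as 1 gene table, in which 12.8% of the entries had decimals. Columns were matched to libraries by name, and 0 were left unused. The members and gene lists were chosen with earlier results of these data known.

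Estimated counts were rounded to whole numbers and tested over all rows with edgeR 4.0.16 in R 4.3.3 (TMM scaling, filterByExpr, glmQLFit, glmQLFTest, Benjamini-Hochberg adjustment). The genotypes were set against each other within a preparation, with a call at an adjusted p under 0.05. Between preparations the model held genotype as well, and a called row had to change by 1 or more on the log2 scale too. Same-numbered libraries of a genotype come from 1 mouse, and their deviations from the group means correlated at 0.358 to 0.735 over 14601 rows. P-values measure the spread between these libraries. Counting error alone sets the Poisson intervals, which do not treat PCR copies as dependent.

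The text names all members. From each list it names the genes called in KO against WT (at most 10) and at most 3 highest and 3 lowest called genes between preparations, and for each member the 2 most similar rows with a mean of at least 10 ppm. Alternatives were DESeq2 1.42.0, other scalings and count filters, the 7SL rows summed, the 2 excluded rows removed, a replicate block, mice 3 to 6 alone, KO mouse 6 left out, each library left out, and, chosen after seeing the data, mouse 5 of each genotype left out. Shares, permutation tests and figures used Python 3.11.15, numpy 2.4.6, pandas 2.3.3, scipy 1.17.1 and matplotlib 3.10.9. Gene positions and sequences are from GENCODE M21 (GRCm38). The 7SL sequence is not reported here. Fits were tested on simulated data.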

Additional observations from a re-analysis of the deposited data

Results flagged for a closer look

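A library was singled out where it lay far from the nearest other library of its group, relative to the range of the group. Of 42 groups of 4 or 6 libraries examined over 7 RNAs, 8 held such a library. Chance gives about 1 in 20 groups where groups are independent and values are not tied. Here several flags share a library or a mouse, and Rny3 in PolyA KO rests on 2 counts in 1 library. The share flagged therefore cannot be set against that rate.

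In NoSelect WT 5, Rmrp was at 1847 ppm (nearest other 2186) and Rny1 at 84.5 ppm (nearest other 138). In RiboZero WT 5, Rny1 was at 7.756 ppm (nearest other 10.9). These belong to mouse 5 of WT, whose other short RNA rows were also low.

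In RiboZero KO 4, Rpph1 was at 2756 ppm where the nearest other KO library had 3647. Its Rmrp was the lowest of the 12 RiboZero libraries as well, at 1383 ppm, but within the spread of that group.

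In PolyA KO 1, 7SL was at 7.76 ppm (nearest other 4.44), Rny1 at 0.1798 ppm on 6 counts and Rny3 at 0.05993 ppm on 2 counts. In PolyA WT 3, Rn7sk was at 0.5295 ppm on 18 counts (nearest other 0.841).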

How the results depend on the processing

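Of 1130 member values recomputed under the alternatives, 1097 kept their direction and their side of the threshold and 33 changed sign, none of which was called (lowest adjusted p 0.0607, edgeR with Benjamini-Hochberg adjustment). Of these, 30 were KO effects near 0. In NoSelect Rny1 was −0.0017 with DESeq2, −0.036 with scaling to the total, −0.0013 with at least 10 counts in every library and −0.24 without KO mouse 6, where Rny3 was −0.19 and Rn7sk −0.0015, and Rmrp was −0.018 with scaling to the total. In PolyA Rn7s1 and Rn7s2 were −0.033 with mice 3 to 6 alone. Rpph1 in RiboZero against NoSelect was 0.12 with scaling to the total. Leaving out each library in turn gave KO effects from −0.044 to 0.0011 (Rn7sk), −0.053 to 0.038 (Rpph1), −0.034 to 0.27 (Vaultrc5) and −0.24 to 0.0080 (Rny1) in RiboZero, from −0.12 to 0.17 (Rn7s1 and Rn7s2) and −0.075 to 0.11 (Rn7sk) in PolyA, and from −0.0015 to 0.065 (Rn7sk), −0.071 to 0.074 (Rmrp), −0.28 to 0.24 (Vaultrc5), −0.24 to 0.20 (Rny1) and −0.19 to 0.26 (Rny3) in NoSelect, and Rpph1 in RiboZero against NoSelect ran from −0.038 to 0.017. With at least 10 counts in every library, 3 members were tested and called in PolyA against NoSelect and 3 in PolyA against RiboZero. The mouse correlations passed for 5 RNAs without KO mouse 6 and 0 as shares of all counts, the cause of which was not tested. Of 898 values of list genes recomputed, 887 kept their call, 11 lost it and 0 changed sign. In PolyA against NoSelect Polr3gl fell under the size of a call (0.99 with DESeq2 or median-of-ratios scaling), as did Parp4 with scaling to the total (−0.74), which moved the median of all rows by 0.46 there and by 0.34 in PolyA against RiboZero.

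Same-numbered WT and KO mice are different animals, and their deviations correlated at −0.185 to 0.270. With the replicate number as a block, KO calls over all rows went from 579 to 325 in RiboZero, from 694 to 577 in PolyA and from 372 to 102 in NoSelect, Rny1 in NoSelect was −0.058, and Polr3k in NoSelect had an adjusted p of 0.0812 (log2 fold change 0.31). With the mouse as a replicate block, 3 members were called in RiboZero against NoSelect and 8 in each PolyA comparison, as without it.

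Counts over all rows moved more. DESeq2 called 985, 1355 and 874 rows in KO against WT (RiboZero, PolyA, NoSelect). RiboZero had 255 with mice 3 to 6 alone, 276 without mouse 5 of each genotype and 380 without WT mouse 5. PolyA had 1066 without WT mouse 2, 457 without WT mouse 5 and 442 without KO mouse 2. NoSelect had 59 without mouse 5 of each genotype and 148 to 210 without WT mouse 4, 5 or 6 or KO mouse 4 or 5. Without a filter on low counts, and with at least 10 counts in every library, the calls were 7039 and 2902 in PolyA against NoSelect, 1100 and 301 in RiboZero against NoSelect, and 6552 and 2560 in PolyA against RiboZero. The interactions had 0 calls, but 13, 9 and 11 with DESeq2, and 1 with the replicate block in both pairs that include RiboZero and 1 with mice 3 to 6 alone in RiboZero against NoSelect. In PolyA the short RNAs had 4 to 15 counts over 12 libraries, which limits the precision of their values.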

Other observations

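Srp54a, which encodes the GTPase of the signal recognition particle, was listed at 0 in every NoSelect and every PolyA library, and its mean was above 0 in RiboZero in both genotypes. Ube2l3, the row whose pattern was most like those of 7SL, Rn7sk and Rpph1, was listed at 0 in every PolyA library and had a mean of 58.8 ppm in NoSelect and 65.6 ppm in RiboZero. Estimated counts of 0 can be failed estimates where near-identical transcripts compete for reads, so these zeros are given as listed values.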
